A study of Mus musculus with 23 samples.

Results

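The circadian clock genes described here are Arntl, Clock, Npas2, Per1, Per2, Per3, Cry1, Nr1d1, Nr1d2 and Dbp. They were chosen by name, as the core loop of the mammalian clock and its best known output, and make up 10 of 18194 genes measured on 23 arrays of mouse colon RNA. The arrays carried 24 probe sets annotated to them and to no other gene. Each gene is represented by the log2 expression value of the probe set that was brightest on average.

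All mice were of the BALB/c strain and fall into 4 groups. Untreated wild type had 5 arrays, wild type given TNBS had 6, untreated Fn14 knockout had 5 and Fn14 knockout given TNBS had 7. Fn14, encoded by Tnfrsf12a, is the receptor of the cytokine TWEAK, and TNBS is a hapten that gives colitis when instilled rectally in ethanol. Per the labels' protocols, dosing with 0.2% TNBS lasted 6 weeks, the volume per g of body weight was raised from 1 to 2 ul, and colons were collected 3 days after dosing ended. The labels do not say if untreated mice received the solvent, and a TNBS effect therefore covers solvent and handling too. Clock genes change with the hour of the day. The hour at which each colon was collected was not known here, so hour of collection and group cannot be told apart. The labels also do not tie every sample to a mouse of its own, and p-values then reflect only how far these samples spread, which may be technical.

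The clock of mammalian cells is a feedback loop. ARNTL (also called BMAL1) pairs with CLOCK or NPAS2 and switches on genes through E-boxes, among them the Per and Cry genes, whose proteins return to repress the pair. The same pair drives Nr1d1 and Nr1d2, the REV-ERB receptors that repress Arntl and Npas2, and the output factor Dbp, which acts through D-boxes. In a rhythmic tissue such as the intestine, Arntl and Npas2 are therefore low at the hours when Dbp, Nr1d1 and Per3 are high.

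Tnfrsf12a served as the check of genotype. Its mean log2 value was 6.65 in untreated wild type, 7.35 in wild type with TNBS, 4.11 in untreated knockout and 4.06 in knockout with TNBS. No knockout array reached the level of any wild-type array. The arrays of a group correlated at 0.989 or more over all genes, and 27.9% of deposited values were equal to the floor of the scale, log2 2.17. Colonocyte markers were high everywhere, with a log2 summed level of 15.3 to 15.67 over all groups. The colon is a mixture of cells, so fewer cells of a type and less RNA per cell cannot be told apart.

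Promoters of 4 clock genes are shown because they carry the motifs through which the loop is wired and belong to genes with measured changes below. Capitals mark the E-box CACGTG, the D-box TTANGTAA and the nuclear receptor motif AGGTCA, read on both strands. The windows are from RefSeq on GRCm38.p6 and written along the gene's own strand. Distances are counted from the start that defines each window. Bases that the gene's annotated span covers were left off, save for Per1. The printed stretch ends 43 bases before that start for Per3 and 30 bases before it for Ciart. For Per1 and Cry1 it ends directly before the start. Per1 lies on chromosome 11, plus strand, chr11:69098699-69098948, with another annotated start further upstream. Per3 is on chromosome 4, minus strand, chr4:151044708-151044915. Cry1 is on chromosome 10, minus strand, chr10:85185055-85185304. Ciart, a repressor of the ARNTL pair from the wider clock list, is on chromosome 3, minus strand, chr3:95882258-95882478.
Per1: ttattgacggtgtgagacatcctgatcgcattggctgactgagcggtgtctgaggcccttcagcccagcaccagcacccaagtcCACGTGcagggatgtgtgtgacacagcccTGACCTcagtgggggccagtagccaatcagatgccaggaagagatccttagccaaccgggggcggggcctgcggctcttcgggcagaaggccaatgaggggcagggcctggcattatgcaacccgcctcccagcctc
Per3: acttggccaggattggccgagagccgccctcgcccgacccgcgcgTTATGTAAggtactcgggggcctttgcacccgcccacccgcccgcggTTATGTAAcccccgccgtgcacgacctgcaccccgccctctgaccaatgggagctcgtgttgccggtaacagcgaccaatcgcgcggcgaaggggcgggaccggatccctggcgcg
Cry1: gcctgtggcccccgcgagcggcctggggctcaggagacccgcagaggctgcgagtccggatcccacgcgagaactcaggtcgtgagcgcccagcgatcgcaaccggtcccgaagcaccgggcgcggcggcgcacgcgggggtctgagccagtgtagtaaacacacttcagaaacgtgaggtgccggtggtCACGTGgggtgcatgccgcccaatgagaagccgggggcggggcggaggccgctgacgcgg
Ciart: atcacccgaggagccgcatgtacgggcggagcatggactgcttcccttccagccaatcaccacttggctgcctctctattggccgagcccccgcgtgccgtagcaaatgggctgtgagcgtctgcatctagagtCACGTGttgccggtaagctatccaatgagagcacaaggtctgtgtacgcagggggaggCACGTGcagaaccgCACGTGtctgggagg

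The E-box of Per1 began 166 bases before the start and its AGGTCA motif, here read as TGACCT, 137 bases before it. The D-boxes of Per3 began 205 and 158 bases before the start, and the E-box of Cry1 began 60 bases before it. Ciart held 3 E-boxes, at 116, 58 and 44 bases. The table held 13 windows for 9 of the 10 clock genes. Of these windows, 2 held the E-box (15.38%), 1 the D-box (7.69%) and 3 the AGGTCA motif (23.08%). Over all 32851 windows of the table the shares were 6.02%, 2.06% and 14.02%. These matches describe letters in a short window and say nothing about binding.

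TNBS in wild type lowered the activating genes Arntl and Npas2 and raised the output gene Dbp, the REV-ERB gene Nr1d2 and the period genes Per1 and Per3. Cry1 fell. In all, 7 of 10 clock genes passed limma's test with Benjamini-Hochberg adjustment over all genes at a threshold of 0.05, 4 higher and 3 lower, where 16.5% of all genes did (10.2% higher and 6.27% lower). The arrays of the compared groups did not overlap for 7 of 10 clock genes, against 10.1% of all genes. The median change was -1.72 over the 3 activating genes and 1.02 over the 6 Per, Nr1d and Dbp genes, against 0 over all genes.

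Arntl was 9.04, 9.04, 9.06, 8.69 and 8.91 on the 5 untreated wild-type arrays. With TNBS its lowest, median and highest values were 6.11, 6.51 and 6.82. Every TNBS array lay below every untreated array. The change was -2.46 ± 0.37 (SE; limma adjusted p = 0.000141), or 5.50-fold lower.

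Npas2, the partner of ARNTL that can stand in for CLOCK, was 9.94, 9.84, 9.91, 9.62 and 9.63 without TNBS. With TNBS it ran from 7.68 over a median of 8.10 to 8.33, again with no overlap. It changed by -1.72 ± 0.26 (SE; limma adjusted p = 0.000152). Clock itself moved least, from 10.69 ± 0.17 (SD, n = 5) to 10.45 ± 0.11 (SD, n = 6), a difference of -0.24 that did not pass (limma adjusted p = 0.0543). Its probe sets disagreed on the call. Of the 3 others, 1 was lower by 0.84 (limma adjusted p = 0.000546), 1 by 0.58 (limma adjusted p = 0.00393) and 1 by 0.53 (limma adjusted p = 0.0791), each adjusted over all probe sets. Without untreated wild-type replicate 3, the lowest of its group for Clock, the main probe set passed at limma adjusted p = 0.00805.

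Dbp had the largest change of the 10 genes in size. It was 6.95, 7.59, 6.39, 8.71 and 7.18 in untreated wild type, with replicate 4 the highest. The TNBS arrays ran from 10.12 over a median of 10.60 to 10.89, all above it. The change was 3.21 ± 0.55 (SE; limma adjusted p = 0.000524), or 9.23-fold higher. The other probe set of Dbp gave 3.93.

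Nr1d2 was 10.16, 10.49, 9.85, 10.90 and 10.16 without TNBS and 11.05, 11.46 and 11.56 at the lowest, median and highest with it. The groups did not overlap and the change was 1.09 ± 0.21 (SE; limma adjusted p = 0.0012). Nr1d1, the other REV-ERB gene, was 7.36, 7.82, 6.74, 8.41 and 7.81 without TNBS. With TNBS it ran from 8.33 over a median of 8.55 to 8.83, so untreated replicate 4 overlapped the TNBS arrays. Its difference of 0.94 ± 0.40 did not pass (limma adjusted p = 0.13), but did without untreated knockout replicate 4, which shares the estimate of the spread (limma adjusted p = 0.0381).

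The period genes encode the repressors of the loop. Per3 was 7.48, 8.16, 7.09, 8.37 and 7.55 in untreated wild type. With TNBS it ran from 9.47 over a median of 9.86 to 10.10. The groups were separate and the change was 2.11 ± 0.40 (SE; limma adjusted p = 0.00104). Of its 6 probe sets, 4 rose by 1.95 to 2.71 and 2 stood at the lowest value on all 23 arrays. Per1 was 5.24, 5.76, 5.35, 5.48 and 5.65 without TNBS and ran from 6.02 over 6.45 to 6.71 with it, without overlap (change 0.90 ± 0.24, limma adjusted p = 0.0129). Per2 also had groups without overlap, 7.57 to 8.47 against 8.76 to 9.31, but its difference of 0.87 ± 0.39 did not pass (limma adjusted p = 0.153). With the 2 wild-type groups fitted alone, Per2 passed (limma adjusted p = 0.00845), as did Nr1d1 (limma adjusted p = 0.0389). The SD of Per2 was 0.35 and 0.20 in those groups, against 0.68 and 0.97 in knockout without and with TNBS.

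Cry1, a repressor partner of the PER proteins, went the other way from the period genes. It was 9.85, 9.61, 9.92, 9.35 and 9.70 without TNBS and ran from 8.73 over a median of 8.89 to 9.35 with it. The lowest untreated array (replicate 4) and the highest TNBS array (replicate 2) met at 9.35. The change was -0.73 ± 0.14 (SE; limma adjusted p = 0.00145).

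**Figure D1:**
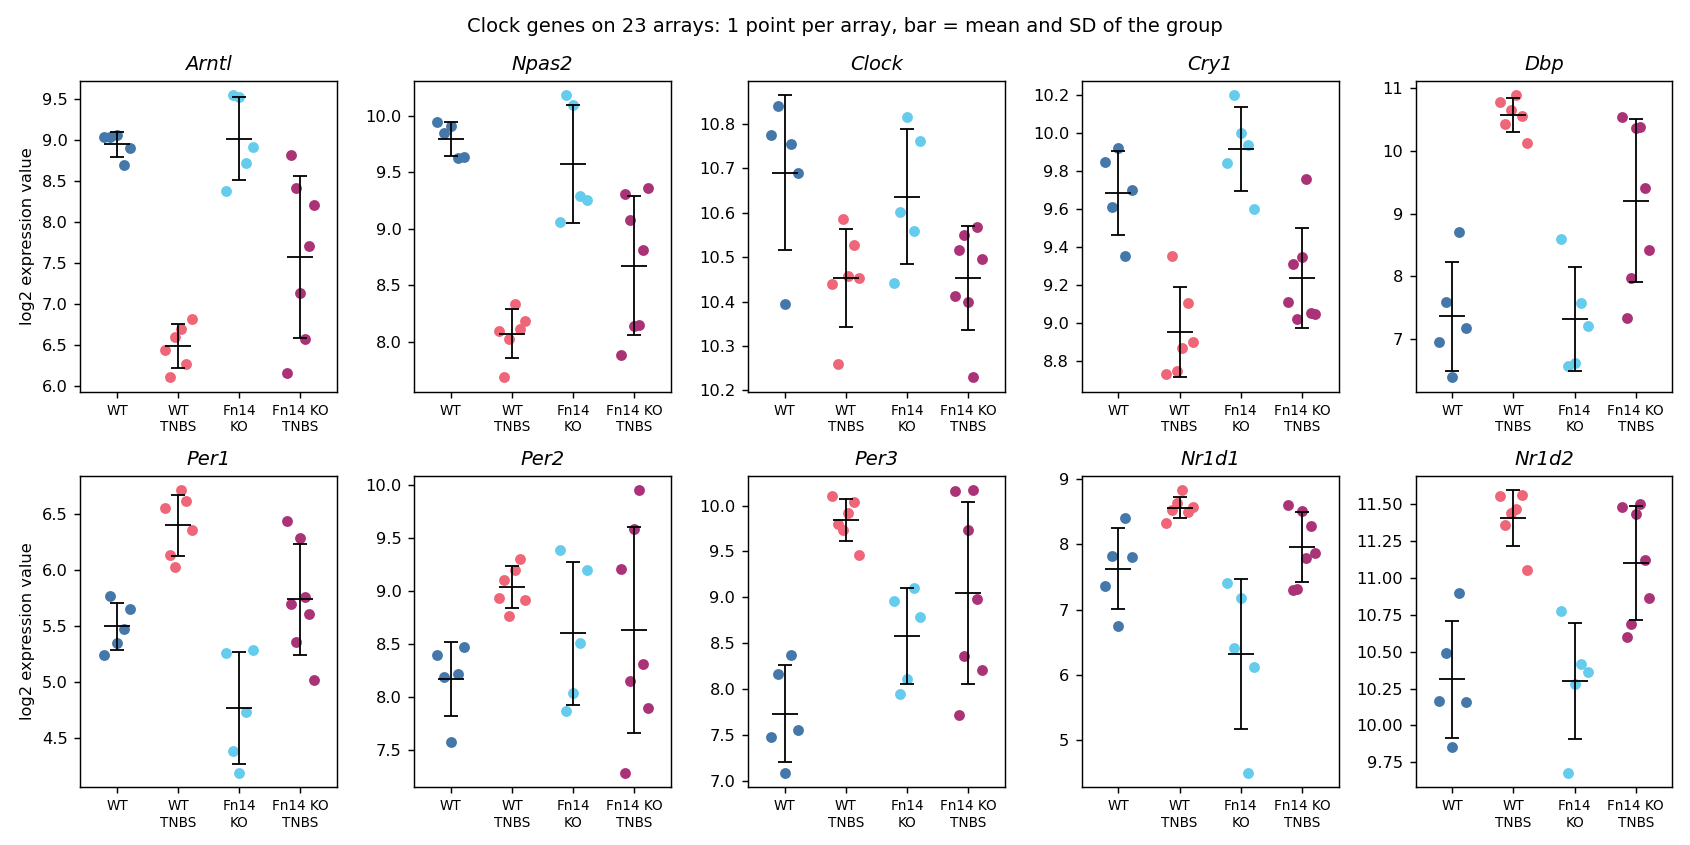
Log2 expression value of each clock gene on 23 arrays, with 1 point per array and the mean and SD of each group as bars; every panel has its own y axis. Wild-type TNBS points of Arntl, Npas2, Dbp, Per1, Per2, Per3 and Nr1d2 lie clear of untreated wild type, while knockout TNBS points spread from one level to the other.

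TNBS in the Fn14 knockout changed Arntl, Npas2 and Cry1 downward and Dbp, Nr1d1, Nr1d2 and Per1 upward. Again 7 of 10 clock genes passed, 4 higher and 3 lower, where 8.55% of all genes did (4.08% higher and 4.47% lower), but the groups overlapped for all 10 (3.87% of all genes did not overlap). Untreated knockout arrays entered these differences, and they are not the controls of the wild-type comparison.

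Arntl in untreated knockout was 8.38, 9.54, 9.52, 8.72 and 8.91. With TNBS it was 6.15, 8.82, 8.41, 7.13, 6.57, 7.71 and 8.20 on replicates 1 to 7. Replicates 1, 4 and 5 were the lowest, and replicates 2 and 3 lay within the untreated range. The change was -1.44 ± 0.36 (SE; limma adjusted p = 0.0169).

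Npas2 was 9.06, 10.18, 10.09, 9.29 and 9.26 without TNBS and 7.88, 9.31, 9.08, 8.14, 8.15, 8.81 and 9.36 with it. The same 3 TNBS arrays, replicates 1, 4 and 5, were lowest. It changed by -0.90 ± 0.25 (SE; limma adjusted p = 0.0324). The main probe set of Clock differed by -0.18, which did not pass (limma adjusted p = 0.172). Another of its probe sets fell by 0.60 (limma adjusted p = 0.00546 over all probe sets), and so did the mean of its probe sets, by 0.42 (limma adjusted p = 0.00824).

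Dbp was 8.60, 6.57, 6.62, 7.58 and 7.22 in untreated knockout and 10.54, 7.34, 7.98, 10.37, 10.39, 9.41 and 8.41 with TNBS. Replicates 1, 4 and 5 were highest and replicates 2, 3 and 7 lay within the untreated range. The change was 1.89 ± 0.54 (SE; limma adjusted p = 0.0337). Nr1d2 rose by 0.80 ± 0.20 (limma adjusted p = 0.0183) and Nr1d1 by 1.63 ± 0.39 (limma adjusted p = 0.0135). The other probe set of Nr1d2, dim at a mean of 2.73, differed by 0.16 (limma adjusted p = 0.9 over all probe sets). The mean of the Nr1d2 probe sets differed by 0.48 and did not pass (limma adjusted p = 0.122). Nr1d1 was 7.42, 6.40, 7.17, 4.50 and 6.12 without TNBS and 8.61, 7.30, 7.32, 8.51, 7.79, 8.29 and 7.87 with it. Untreated replicate 4 was far lower than the other 4 arrays of its group, and TNBS replicates 2 and 3 lay within the untreated range.

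Per1 rose by 0.97 ± 0.23 (limma adjusted p = 0.0129). Per3 was 8.96, 7.94, 8.11, 9.10 and 8.79 without TNBS and 10.16, 7.71, 8.36, 9.73, 10.17, 8.99 and 8.21 with it. Its mean difference of 0.47 did not pass (limma adjusted p = 0.565), and replicates 1, 4 and 5 lay above every untreated array. Per2 differed by 0.03 (limma adjusted p = 1). Cry1 fell by 0.68 ± 0.14 (limma adjusted p = 0.00512), with TNBS replicate 5 at 9.76 inside the untreated range of 9.60 to 10.20.

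These knockout counts rested on single arrays. Leaving out untreated knockout replicate 2 or 3 lowered the 7 calls to 4. The call of Dbp was lost without untreated knockout replicate 2, 3, 4 or 5 or TNBS replicate 1, 4, 5 or 6, that of Npas2 without untreated replicate 2 or 3 or TNBS replicate 1, 4 or 5, that of Arntl without untreated replicate 3, and that of Nr1d2 without untreated replicate 2. Fitting the 2 knockout groups alone gave the same differences with fewer calls over all genes (4.7%), and left 1 clock gene called, Cry1, with limma adjusted p of 0.116 for Arntl and 0.131 for Dbp.

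**Figure D2:**
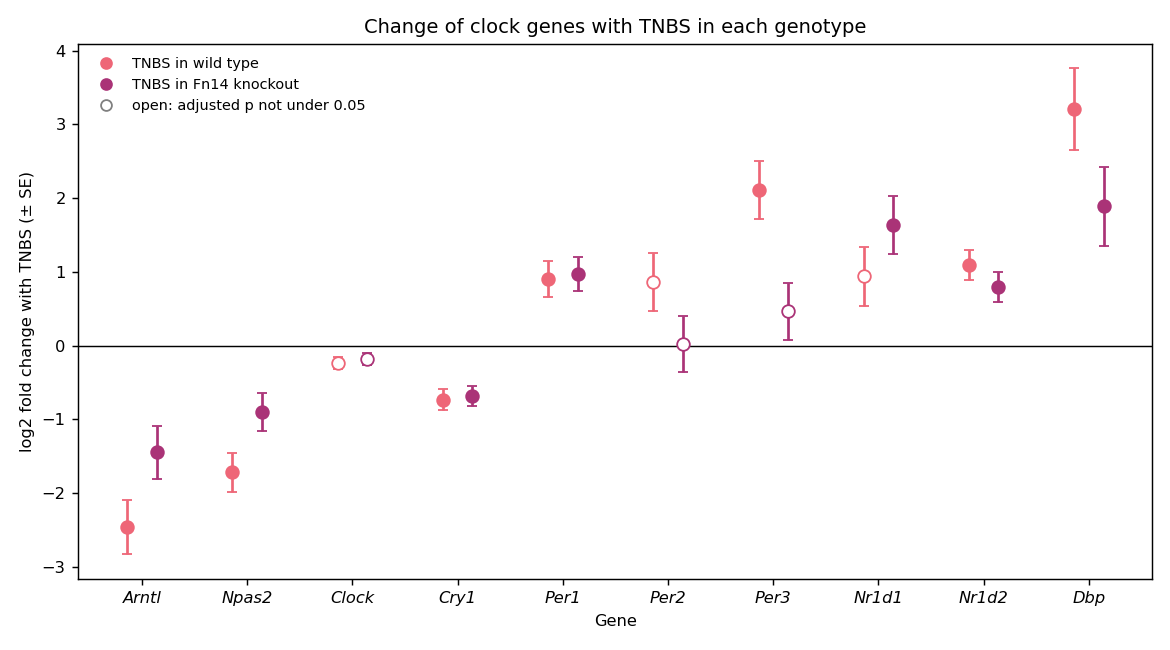
Log2 fold change with TNBS of each clock gene in wild type and in Fn14 knockout, with the SE as bars; filled points passed limma's test and open points did not. Dbp stands highest in both genotypes (3.21 and 1.89) and Arntl lowest (-2.46 and -1.44), and Per3 is filled in wild type only.

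Whether the TNBS effect differed between genotypes was tested directly. None of the 10 clock genes passed that test, where 2.00% of all genes did, and 2 had an unadjusted limma p under 0.05. Over all genes, an unadjusted limma p of 0.0469 ranked 2776 of 18194, so 2 of 10 is read as no excess. The difference of effects was -1.64 ± 0.55 for Per3 (limma adjusted p = 0.129), 0.82 ± 0.36 for Npas2 (limma adjusted p = 0.276), 1.01 ± 0.52 for Arntl (limma adjusted p = 0.359) and -1.32 ± 0.77 for Dbp (limma adjusted p = 0.448). A call in wild type and none in knockout for Per3 therefore does not show that the genotypes differ.

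Untreated knockout and untreated wild type had no clock gene called, where 4.83% of all genes were, and 2 had an unadjusted limma p under 0.05. These were Nr1d1, lower by 1.30 in the mean (difference -1.30 ± 0.42, limma adjusted p = 0.0803), and Per1 (-0.73 ± 0.25, limma adjusted p = 0.0975). Per3, at an unadjusted limma p of 0.0544, ranked 3557 of all 18194 genes here, so 2 of 10 is read as no excess. Nr1d1 passed without untreated knockout replicate 1 (limma adjusted p = 0.0358). Its difference leaned on untreated knockout replicate 4, at 4.50 against 6.12 to 7.42 on the rest of that group. Without replicate 4 the difference did not pass and was -0.85, the smallest in size of all alternatives. Skeletal muscle markers also differed between these groups, with 2 of 6 higher in the knockout and a log2 summed level of 9.13 to 11.29 against 5.83 to 8.07. Their part in the clock values was not tested. With their mean as a covariate 0.495% of all genes and 0 clock genes were called in this comparison, so that fit says little about the clock genes.

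With TNBS, the knockout had more Arntl than wild type. Arntl was the single clock gene of 10 to pass, where 10.5% of all genes did, and 6 of 10 had an unadjusted limma p under 0.05. Over all genes, Cry1 at an unadjusted limma p of 0.0436 ranked 3995 of 18194. Arntl had a mean of 7.57 ± 0.99 (SD, n = 7) against 6.49 ± 0.27 (SD, n = 6). The difference was 1.09 ± 0.34 (SE; limma adjusted p = 0.0481), and the groups overlapped. Knockout replicates 1 and 5 lay within the wild-type range and the other 5 lay above it. The call is marginal: it was lost under 24 alternatives, 19 of which left out 1 array, at limma adjusted p of 0.0512 to 0.0999 in those 19. With the skeletal muscle mean as a covariate it was 0.199. In the same comparison 3 of 4 mast cell markers and 1 of 5 leukocyte markers, Cd68 (-1.22), were lower in the knockout, and their part was not tested. Per1 was lower by 0.66 in the mean and passed without knockout TNBS replicate 1 or 4 (main limma adjusted p = 0.0602).

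The order of the group means of Arntl was untreated knockout at 9.02, untreated wild type at 8.94, knockout with TNBS at 7.57 and wild type with TNBS at 6.49. The first pair differed by 0.07, within its spread. Dbp had the reverse order of the TNBS groups, with 10.57 in wild type and 9.21 in knockout, above 7.36 and 7.32 in the untreated groups, which differed by 0.05 in the mean.

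The arms of the loop were then set against each other array by array. The positive arm is the mean of Arntl, Clock and Npas2, and the other arm the mean of Per1, Per2, Per3, Nr1d1, Nr1d2 and Dbp. Cry1 was placed in neither. The arm difference, the second mean minus the first, sets an array's own genes against each other, so only its shifts between arrays are read.

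It was -2.32, -1.91, -2.62, -1.34 and -1.94 in untreated wild type and ran from 0.60 over a median of 1.03 to 1.21 with TNBS. In untreated knockout it was -0.90, -2.97, -2.74, -2.05 and -1.82. In knockout with TNBS it was 1.26, -1.89, -1.37, 0.76, 0.94, -0.41 and -1.31 on replicates 1 to 7. Replicates 1, 4 and 5 thus stood at the level of wild type with TNBS, replicates 2, 3 and 7 within the untreated range, and replicate 6 between them.

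**Figure D3:**
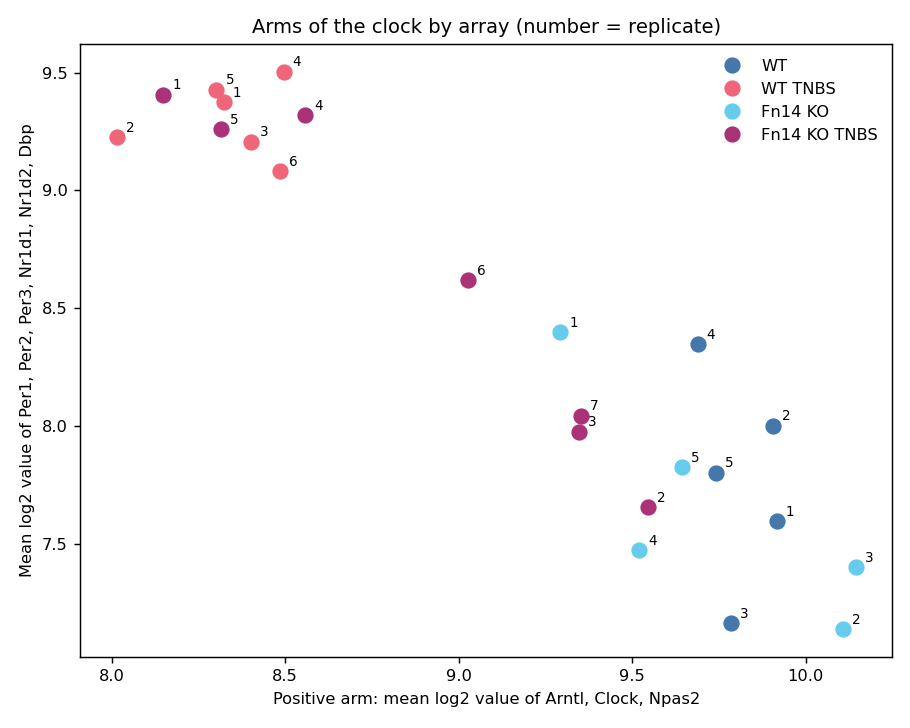
Mean log2 value of Per1, Per2, Per3, Nr1d1, Nr1d2 and Dbp against that of Arntl, Clock and Npas2, with 1 numbered point per array. The 6 wild-type TNBS arrays lie at the upper left beside knockout TNBS replicates 1, 4 and 5, and replicates 2, 3 and 7 lie toward the untreated arrays at the lower right.

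The spread within knockout TNBS was wide for the genes of both arms. Its SD was 0.99 for Arntl, 1.30 for Dbp, 0.99 for Per3 and 0.97 for Per2, against 0.27, 0.27, 0.23 and 0.20 in wild type with TNBS. This difference in spread was not tested.

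Within each TNBS group Arntl was correlated with the other 9 genes, 18 relations in all, with two-sided exact permutation p-values. In knockout with TNBS (n = 7) Dbp had r = -0.958 and rho = -1.0 with Arntl, Per3 r = -0.979 and rho = -0.929, and Nr1d2 r = -0.961 and rho = -0.964. Npas2 had r = 0.955 and rho = 0.857. Each of these 4 had an exact permutation p of 0.0107 for r after adjustment over 18 relations, and Per2 (r = -0.891, rho = -0.857) had 0.0436. For rho the adjusted exact permutation p was 0.00714 for Dbp, 0.0405 for Per3, 0.025 for Nr1d2 and 0.0857 for both Npas2 and Per2.

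Without the 2 arrays farthest from the median of Arntl, r over 5 arrays was -0.999 for Dbp, -0.983 for Per3, -0.991 for Nr1d2, 0.908 for Npas2 and -0.943 for Per2. Clock, Per1, Nr1d1 and Cry1 did not pass, with r of 0.727, -0.713, -0.746 and -0.397. Without knockout TNBS replicate 2 or 6 the number of relations that passed was 0, and without replicate 3 it was 3. With 6 arrays the smallest exact permutation p is 0.00278 before adjustment, which limits these counts. The same limit held without replicate 3 and without each of the remaining knockout TNBS arrays, where more relations passed. It therefore does not account for the drop to 0, and the number of relations that passed depended on single arrays. In wild type with TNBS (n = 6), where Arntl covers a narrow range, 0 of 9 relations passed, with r for Npas2 of 0.774 and exact permutation p of 0.0542 before adjustment. That relation was the closest to passing in that group.

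**Figure D4:**
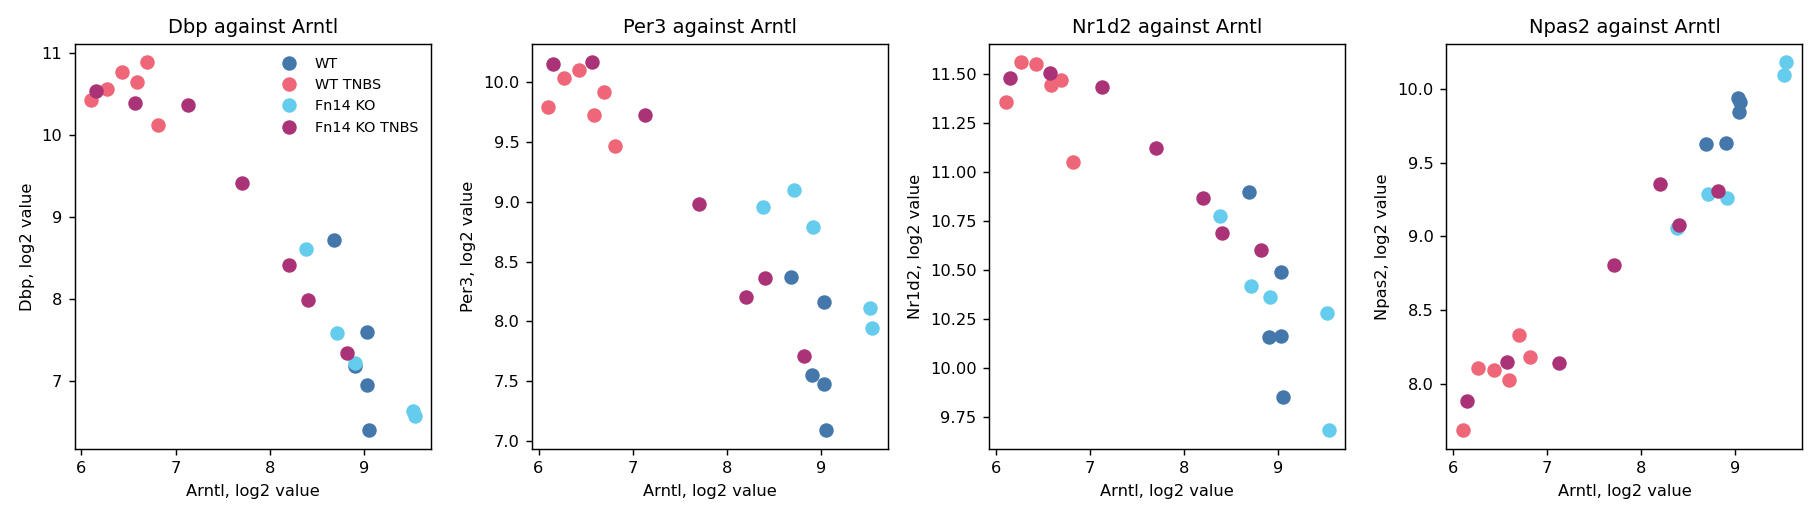
Log2 values of Dbp, Per3, Nr1d2 and Npas2 against Arntl, with 1 point per array and colours for the 4 groups. Knockout TNBS arrays run along the whole range from the wild-type TNBS points (Arntl near 6.49) to the untreated points (near 9).

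Markers of other cells were set beside Arntl in the same 2 groups. Of 14 relations with the log2 summed level of colonocyte, smooth muscle, squamous, skeletal muscle, leukocyte, mast cell and fat markers, added after the data had been seen, 0 passed, with an adjusted exact permutation p of 0.964 throughout. In knockout with TNBS (n = 7), r ran from -0.376 for smooth muscle to 0.096 for mast cell markers. In wild type with TNBS (n = 6) it was larger in size for several lists, at -0.736 for colonocyte, 0.656 for skeletal muscle and 0.559 for smooth muscle markers.

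Squamous epithelial markers did rise with TNBS as a group comparison. Of 8 measured, 3 passed in wild type and 1 in knockout, where 10.2% and 4.08% of all genes were called higher. Their log2 summed level was 5.68 to 8.04 in untreated wild type and 8.27 to 10.7 with TNBS. In knockout it was 5.83 to 9.73 untreated and 7.81 to 11.76 with TNBS. With their mean as a covariate 6 clock genes were called for TNBS in wild type, where 8.2% of all genes were, and 0 in knockout, where 3.93% were. The 7 clock genes called in knockout without the covariate kept their direction and changed less with it, such as -1.27 for Arntl, -0.56 for Cry1 and 1.45 for Dbp. Mast cell markers, 4 of 4, rose in both genotypes, and of 5 leukocyte markers 3 rose in wild type and 2 in knockout. The shares of all genes that rose were again 10.2% and 4.08%. The part of mast cells and leukocytes in the clock values was not tested.

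A wider list of 16 clock-linked genes had 14 with a value. In wild type 4 of 14 rose with TNBS and 0 fell, where 10.2% of all genes rose and 6.27% fell. Tef and Hlf, relatives of Dbp that bind the same D-boxes, rose by 2.31 ± 0.46 (limma adjusted p = 0.00163) and 2.36 ± 0.47 (limma adjusted p = 0.0016). Bhlhe40, a repressor that competes at E-boxes, rose by 0.60 ± 0.09 (limma adjusted p = 0.000115).

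Ciart, whose E-boxes are shown above, stood at or near the lowest value of 2.17 on all 5 untreated wild-type arrays and ran from 4.15 to 5.76 with TNBS. Its change of 2.82 ± 0.42 (SE; limma adjusted p = 0.000108) is understated for that reason, and with values below log2 5 set to 5 the call was lost (limma adjusted p = 0.133).

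In the knockout, Bhlhe40 alone of the 14 rose with TNBS, by 0.40 ± 0.09 (limma adjusted p = 0.00685). Of all genes 4.08% rose there, so 1 gene of 14 says little about the list. Tef differed by 0.96 (limma adjusted p = 0.205) and Hlf by 0.67 (limma adjusted p = 0.433). Ciart was at 4.53, 2.17, 2.18, 4.18, 3.85, 2.68 and 2.17 on replicates 1 to 7, so replicates 1, 4 and 5 were again the high ones.

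Between genotypes with TNBS, Ciart was lower in the knockout by 1.88 in the mean (difference -1.88 ± 0.38, limma adjusted p = 0.00352), and this call was lost with values below 5 set to 5 (limma adjusted p = 0.123). Nampt, an enzyme of NAD synthesis under clock control, was lower in untreated knockout (-0.42 ± 0.11, limma adjusted p = 0.0364), and that call was lost under 11 alternatives. These were array weights, the 2 groups alone, a minimum change of 1, the skeletal muscle covariate, and leaving out untreated wild-type replicate 3, 4 or 5 or untreated knockout replicate 1, 2, 4 or 5. No gene of the wider list passed the test of the difference of TNBS effects. Of the 14 genes, 6 had an unadjusted limma p under 0.05, and Tef at 0.0469 ranked 2776 of all 18194 genes. Under some alternative, 3 genes of the list passed the adjusted test. Ciart passed without knockout TNBS replicate 1 or 4, Cry2 without knockout TNBS replicate 5, and the kinase gene Csnk1d with the mean of its probe sets or with every probe set.

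**Figure D5:**
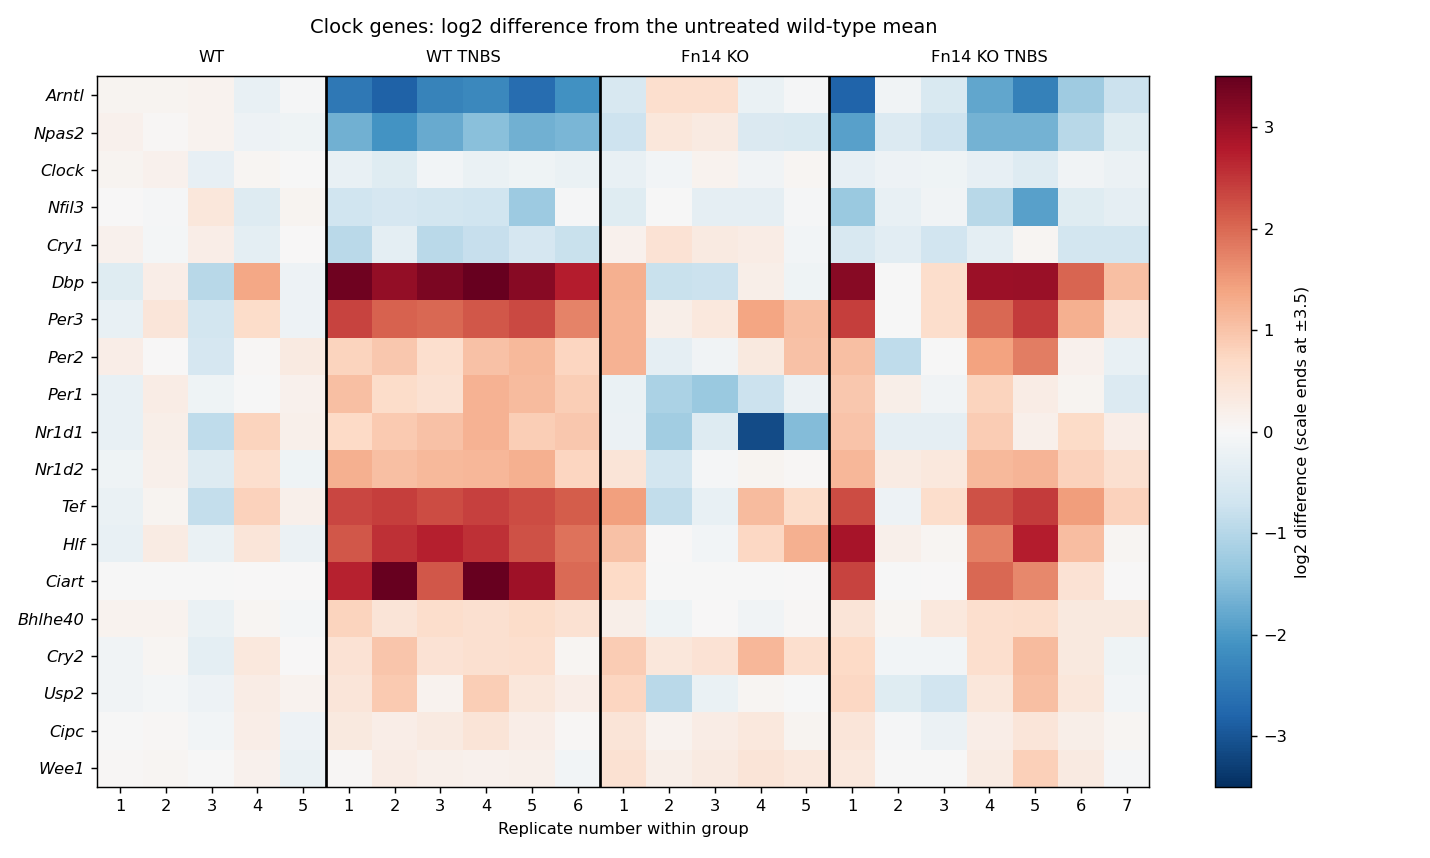
Log2 difference of clock genes and of wider-list genes from the untreated wild-type mean, with 1 column per array and the colour scale ending at ±3.5. Within knockout TNBS, replicates 1, 4 and 5 carry the colours of wild type with TNBS and replicates 2 and 3 those of the untreated groups.

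Genes whose level followed the arm difference from array to array were ranked by Pearson's r over 23 arrays after group means were subtracted, among 9078 genes brighter than the median gene and outside the clock lists. The highest were Tns4 (r = 0.823), Pgm2l1 (0.762), Rab11fip4 (0.734), Lrrc8e (0.732) and Ankrd12 (0.712). The lowest were the claudin gene Cldn8 (r = -0.857), the phosphate transporter gene Slc34a2 (-0.793), Hmmr (-0.786), Ier5 (-0.778) and Pbk (-0.759). Measured the same way, the 14 genes of the wider list had a median r of 0.73, from -0.773 for Nfil3 to 0.939 for Tef, with Csnk1e at 0.114, Nampt at 0.157 and Rora at 0.373. Members of the arms are part of the measure, so their own r, such as 0.953 for Dbp, is no independent value. These correlations are descriptions over arrays that share groups and normalization. The arm difference spread most in knockout with TNBS (SD 1.28, n = 7), so those arrays weigh most in r. Its SD was 0.48 in untreated wild type, 0.23 in wild type with TNBS and 0.82 in untreated knockout.

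Cldn8 changed with TNBS by -1.26 in wild type (limma adjusted p = 6.56e-05) and -0.63 in knockout (limma adjusted p = 0.0285), and was higher in knockout than in wild type with TNBS by 0.71 (limma adjusted p = 0.00808). Lrrc8e and Tns4 had a called difference of TNBS effects, at -0.66 (limma adjusted p = 0.0167) and -0.78 (limma adjusted p = 0.048).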

How the data were processed

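Total RNA of 23 colon samples was hybridised to 1 Affymetrix array each. The authors deposited log2 values for 45101 probe sets. Per the submitters' processing notes, RMA and GCRMA were used, without saying which gave the deposited values. Values at the lowest value understate fold changes. Probe sets with 1 gene (34958) were named from the platform annotation of 2016 and GRCm38.p6, those with several (932) or no name (9211) were left out, and 18194 genes kept their brightest probe set.

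Groups came from sample titles. limma 3.58.1 (R 4.3.3) fitted 1 mean per group over all arrays (19 residual degrees of freedom) with 5 contrasts, adjusted by Benjamini-Hochberg over all genes. On simulated arrays for TNBS in wild type 54 of 67 genes shifted by 0.5 were called, 61 of 67 shifted by 1 and 65 of 66 shifted by 2, with 13 of 17994 unshifted genes. The simulation drew each gene's noise on its own, with 1 spread for all groups, and shifted only genes brighter than the median gene. It does not cover genes whose groups differ in spread, such as Dbp (SD 0.27 in wild type and 1.30 in knockout, both with TNBS). Correlations used Python 3.11.15 and scipy 1.17.1.

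The clock genes and all lists were chosen with earlier results of these data known. Named genes were the 10 clock genes, Tnfrsf12a, the wider-list genes called in any comparison, and the 5 highest and 5 lowest correlates of the arm difference; other wider-list genes named were picked after their values were seen. Alternatives were the 2 groups alone, limma's trend and robust options, array weights, a dim-gene filter at the 40th percentile, other probe set rules, quantile normalization, median centring, a floor at log2 5, a minimum change of 1, marker covariates, the replicate number as a block, and each array left out.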

Additional observations from a re-analysis of the deposited data

How the results depend on the processing

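For TNBS in wild type, 5 to 9 of the 10 clock genes were called under every alternative run, against 7. For TNBS in knockout the 7 calls became 1 with the 2 groups alone, 3 with a minimum log2 change of 1 and 0 with the squamous covariate, and 4 to 7 with 1 array left out. Without TNBS, 0 genotype calls became 1 with array weights or the dim-gene filter (Nr1d1) and 1 with the replicate block or the squamous covariate (Per1), and 0 to 1 with 1 array left out. With TNBS, 1 genotype call became 0 with the 2 groups alone or the replicate block, and 0 to 2 with 1 array left out. It became 2 with the dim-gene filter, the mean of all probe sets or the squamous covariate. Centring on the median of all deposited probe sets also gave 2. Where the count stayed at 1, the gene was not always Arntl. It was Nr1d2 with every probe set, Per1 with the floor at log2 5 and Cry1 with the skeletal muscle covariate. The every-probe-set rule counted only probe sets that changed in the direction of the main one. It thereby left out a Clock probe set that was higher in the knockout by 0.52 (limma adjusted p = 0.0145 over all probe sets). The main probe set of Clock differed by -0.001. The difference of TNBS effects had 0 calls throughout. Of the relations with Arntl, 0 to 5 passed with 1 array left out, against 5. Over clock and wider-list genes, 94 alternative values in 27 pairs of gene and comparison had the opposite sign to the reported value. None of these reported values was called, and 1 alternative was, Clock between genotypes with TNBS at 0.287 under the mean of all probe sets (limma adjusted p = 0.0436). Causes of these changes were not tested. Replicate numbers do not pair the samples (mean r of same-numbered samples -0.003, and 4 of 23 arrays correlated best with their own number). The replicate block gave 7, 6, 1, 0 and 0 calls over the 5 comparisons.

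Median centring was planned without naming the median, and 3 were run in turn: single-gene probe sets, genes, and all deposited probe sets. Each of the earlier ones was set aside after its result was seen, and the last was taken with an earlier analysis of these data in view, so all 3 are given. With the median of all deposited probe sets 3563 genes were called for TNBS in wild type, 43.4% of them higher; with that of single-gene probe sets 9052, 19% higher; with that of genes 11471, 11.2% higher; uncentred 2998, 62% higher. The gene median moved the median of all genes by -0.169 in that comparison and by 0.142 in the difference of effects. For the genotypes with TNBS the share higher was 33.5%, 52.5% and 70.1%, against 35.7% uncentred. For the genotypes without TNBS it was 41.6%, 43.6% and 33.7%, against 60.4%, and for the difference of effects 41.3%, 60.1% and 80.6%, against 31.1% (43.1% after quantile normalization). Clock genes called under the 3 medians were 8, 8 and 8 for TNBS in wild type, 7, 7 and 7 in knockout and 2, 1 and 1 between genotypes with TNBS. No clock gene turned its direction under centring among the values that had been called. The number of arrays limits the precision, and the low end of the scale has no order at log2 2.17.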
